A study of Mus musculus with 35 samples.

Results

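The regions described here had peaks of acetylation of histone H3 at lysine 27 (H3K27ac) in mouse embryonic fibroblasts (MEF) and in embryonic stem cells (ESC), the start and the reference end point of reprogramming, and in no library of the stages between them. They were chosen by their peaks: all peaks of the 12 H3K27ac lists on chromosomes 1 to 19 and X were merged where they shared at least 1 bp, and a region was kept when it held a peak in both MEF and both ESC lists and in none of the 8 lists of day 3, day 6 and day 9. Of 179334 merged regions 1253 met this rule, which is 0.699%. The MEF and ESC peaks and the missing day 3, 6 and 9 peaks are therefore the choice itself and are given as a description, with no test. KLF4 peak lists took no part in the choice and carry the tests.

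The fibroblasts had the genotype OKSM Col1a1/M2rtTA ROSA26 on a C57BL/6 x 129 background: a doxycycline-inducible cassette for Pou5f1, Klf4, Sox2 and Myc in the Col1a1 locus and its transactivator in the Rosa26 locus. MEF stood in fibroblast medium without doxycycline and were unsorted. Day 3, 6 and 9 cells came from these fibroblasts and stood in ESC medium to which doxycycline (1 µg/ml) and ascorbic acid (50 µg/ml) had been added; day 3 cells were unsorted, and those of days 6 and 9 were sorted for SSEA1, a surface antigen of cells on the way to pluripotency. ESC were the line V6.5, whose labels name neither the cassette nor doxycycline, grown on irradiated feeder cells in serum and LIF. H3K27ac had 2 libraries in MEF, 3 on day 3, 3 on day 6, 2 on day 9 and 2 in ESC. KLF4 had 2 libraries each on day 3, day 6, day 9, in ESC and in ESC with 2i, that is inhibitors of MEK (1 µM) and GSK3 (3 µM). All MEF and ESC H3K27ac libraries carried the batch label DG-3458 and both day 9 libraries EA-3702, while days 3 and 6 had libraries in both. Day 9 thus shares a batch with days 3 and 6 and none with MEF or ESC. Nothing in the labels says whether libraries of a stage came from separate animals or cultures, so the spread between them may be technical.

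H3K27ac is placed by the acetyltransferases EP300 and CREBBP and removed by histone deacetylases, and it marks active promoters and enhancers. During reprogramming fibroblast enhancers lose the mark and pluripotency enhancers gain it, while promoters of genes that every cell uses tend to keep it. KLF4 is a zinc finger factor that binds GC-rich sites with the core letters GGGNGTGG, at promoters and at enhancers.

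Of the 1253 members 110 (8.78%) held a RefSeq gene start, beside 6.88% of all merged regions, and the windows of 6 of these starts show how varied they are. The first 5 starts belong to 4 of the 6 gene-start members with the strongest MEF and ESC peaks, and Otulinl to the only gene-start member with a KLF4 peak in all 10 KLF4 lists. Each window runs from 250 bases before to 50 bases after the start, 5′ to 3′ on the gene's strand, from RefSeq on GRCm38.p6, the assembly sequence called mm10. Capitals mark GGGNGTGG on either strand. Dusp27 lies at chr1:166127849-166128148 on the minus strand and Gpa33 at chr1:166129971-166130270 on the plus strand, both inside 1 member. Mybph lies at chr1:134193198-134193497 (plus), E130018N17Rik at chr2:168154464-168154763 (minus), Gm42054 at chr8:124196303-124196602 (plus) and Otulinl at chr15:27681493-27681792 (minus).
Dusp27: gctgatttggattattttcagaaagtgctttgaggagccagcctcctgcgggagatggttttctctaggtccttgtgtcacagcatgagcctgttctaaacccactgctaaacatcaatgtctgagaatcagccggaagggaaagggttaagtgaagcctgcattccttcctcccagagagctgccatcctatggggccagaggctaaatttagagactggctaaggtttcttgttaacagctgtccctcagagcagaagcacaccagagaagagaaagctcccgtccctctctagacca
Gpa33: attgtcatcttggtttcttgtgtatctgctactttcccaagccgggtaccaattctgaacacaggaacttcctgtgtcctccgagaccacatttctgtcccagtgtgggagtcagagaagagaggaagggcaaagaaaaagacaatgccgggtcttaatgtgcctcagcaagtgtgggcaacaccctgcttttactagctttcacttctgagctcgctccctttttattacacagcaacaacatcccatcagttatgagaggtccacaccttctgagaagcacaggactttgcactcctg
Mybph: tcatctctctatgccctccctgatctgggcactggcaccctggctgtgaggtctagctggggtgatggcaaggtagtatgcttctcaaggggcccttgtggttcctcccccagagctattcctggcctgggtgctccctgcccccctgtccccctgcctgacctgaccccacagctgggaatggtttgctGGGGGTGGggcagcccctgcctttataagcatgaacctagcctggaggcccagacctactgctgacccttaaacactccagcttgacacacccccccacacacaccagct
E130018N17Rik: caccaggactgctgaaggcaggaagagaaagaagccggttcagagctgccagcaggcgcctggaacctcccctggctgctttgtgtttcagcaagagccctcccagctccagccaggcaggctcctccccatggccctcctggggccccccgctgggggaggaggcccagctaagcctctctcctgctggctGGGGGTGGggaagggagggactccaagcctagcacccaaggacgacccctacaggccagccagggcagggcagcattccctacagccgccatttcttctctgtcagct
Gm42054: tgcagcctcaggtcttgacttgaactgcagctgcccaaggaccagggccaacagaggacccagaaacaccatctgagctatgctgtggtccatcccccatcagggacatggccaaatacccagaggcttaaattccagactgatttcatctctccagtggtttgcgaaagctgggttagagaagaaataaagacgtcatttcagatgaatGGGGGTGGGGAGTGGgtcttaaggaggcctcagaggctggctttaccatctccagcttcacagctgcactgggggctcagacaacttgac
Otulinl: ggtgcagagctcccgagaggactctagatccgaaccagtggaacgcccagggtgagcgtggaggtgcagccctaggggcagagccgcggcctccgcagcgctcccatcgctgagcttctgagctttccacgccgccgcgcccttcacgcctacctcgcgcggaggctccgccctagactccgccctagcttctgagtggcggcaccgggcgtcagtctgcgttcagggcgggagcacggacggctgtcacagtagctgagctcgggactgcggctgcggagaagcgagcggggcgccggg

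Mybph and E130018N17Rik each held 1 match to the KLF letters, Gm42054 held 2 that overlap, and Dusp27, Gpa33 and Otulinl held none. The windows of Cldn20 and Catip, among the same strongest gene-start members, are not shown. They held no match to these letters and had 3 and 2 CpG. The Otulinl window had 33 CpG and a GC share of 70.0%, against 0 CpG at Mybph, 2 at Gm42054, 3 at Dusp27, 4 at Gpa33 and 5 at E130018N17Rik. Over the 134 promoter windows with their start inside a member, the median was 10 CpG and 56.7% GC. The 8775 windows inside regions with H3K27ac in all 12 lists had a median of 24 CpG, and the 32585 windows of the whole table had 7. Promoters of members therefore lay between the CpG-rich starts that kept the mark in every list and the CpG-poor starts of regions found in MEF lists alone, where the median was 4. The KLF letters occurred in 29 of the 134 windows (21.6%), beside 17.7% of all promoter windows, 23.1% in regions of all 12 lists, 17.1% in MEF lists alone, 19.1% in ESC lists alone and 32.3% of the 99 windows in regions with a peak in exactly 1 day list. The letters TGANTCA, bound by AP-1, occurred in 12.7% of the windows of members, beside 7.85%, 3.89%, 15.5%, 5.23% and 6.06% of those 5 sets in the same order. GGAATG, bound by TEAD factors, occurred in 20.9%, beside 14.6%, 11.2%, 21.3%, 16.1% and 15.2%. CCGGAAG, bound by ETS factors, occurred in 3.73%, beside 8.92%, 20.8%, 1.92%, 10.8% and 10.1%. ATGCAAAT, the octamer, occurred in 2 windows of members (1.49%), beside 1.75%, 1.36%, 0.698%, 2.06% and 1.01%. All letters were searched on both strands, and these shares are descriptions.

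Regions with peaks at both ends seldom were without any peak in the lists between. Of 15876 regions with a peak in both MEF and both ESC lists, 8242 (51.9%) had a peak in all 8 lists of days 3, 6 and 9, and the 1253 members made up 7.89%. Just outside the rule lay 590 regions with a peak in exactly 1 of the 8 lists. Their single peak came from a day 3 list in 344 regions, of which 175 were of batch EA-3702, from a day 9 list in 241, and from a day 6 list in 5. The day 6 lists were also the shortest, with 17493 to 22462 peaks, against 41471 to 50836 on day 3, 43974 and 45506 on day 9, 88070 and 88347 in MEF, and 81971 and 81231 in ESC. Sequencing depth is unknown, so a missing peak does not show that acetylation was missing.

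The members were of middling strength in the lists that chose them. Peaks were ranked within their list by the deposited p-value, where percentile 100 is the strongest peak. Member top peaks had median percentiles of 55.4 and 56.9 in the MEF lists and 53.6 and 54.0 in the ESC lists. Regions in all 12 lists had medians of 91.5 to 93.3. Regions found in both MEF lists and no other had 50.5 and 50.6, and regions of both ESC lists and no other 53.6 and 51.1, so that members resembled the stage-restricted regions in strength. The deposited fold enrichment of their top peaks had medians of 5.29 and 5.41 in MEF and 4.37 and 4.32 in ESC. Of the end-point regions with a mean percentile over 90 only 4 of 4916 (0.0814%) were members, and of those at or under 25 there were 61 of 118 (51.7%). When every list was held to its 17493 strongest peaks, the length of the shortest list, 98 regions met the rule, 1.499% of 6537 end-point regions, and only 16 of them overlapped a member of the full lists. With the upper 50% of each list there were 696, of which 265 overlapped a member. How far the missing peaks come from shorter lists and how far from lower acetylation cannot be told apart in these files.

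**Figure D1:**
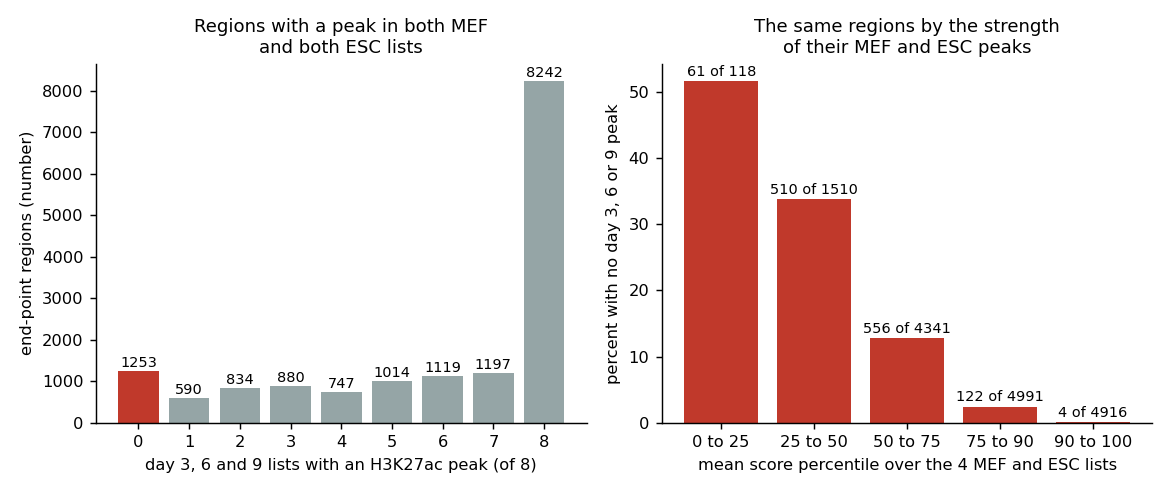
Left, number of regions with an H3K27ac peak in both MEF and both ESC lists by how many of the 8 day 3, 6 and 9 lists also held a peak, with the 1253 members in red. Right, percent of the same regions with no day 3, 6 or 9 peak by their mean percentile over the 4 MEF and ESC lists. The axis calls it a score percentile, and it ranks the deposited p-value. The number of members and of regions stands above each bar. The share runs from 51.7% at or under percentile 25 to 0.0814% over 90.

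The members differed widely among themselves. The mean percentile over the 4 lists ran from 9.58 to 95.4, with quartiles at 40.8 and 64.5. In 41 members all 4 top peaks were above percentile 75, and in 273 all were above 50. In 742 members the deposited q-value of the top peak did not exceed 0.01 in any of the 4 lists. ESC peaks outranked MEF peaks by more than 30 percentile points in 203 members and MEF peaks outranked ESC peaks by as much in 258, while 792 lay within 30 points. MEF and ESC peaks shared at least 1 common base in all 4 lists in 1048 members (83.6%), and in the other 205 they met only through merging. Median width was 1421 bp, between 2654.5 bp for regions in all 12 lists and 718 and 676 bp for those of MEF or ESC lists alone. Leaving out each H3K27ac library in turn gave 1253 to 1663 members, the most without ESC replicate 2.

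**Figure D2:**
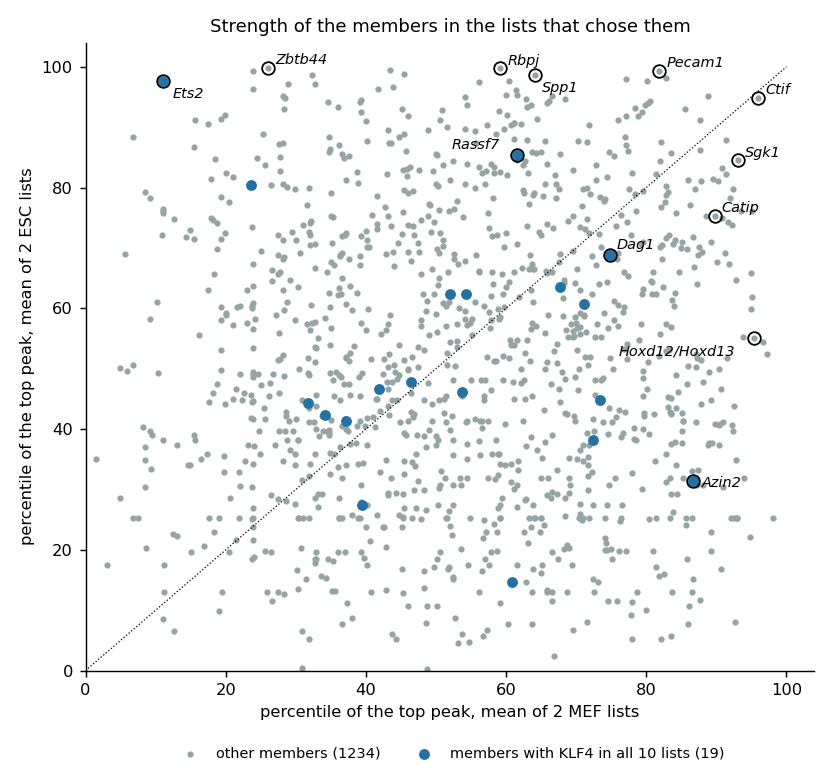
Each point is a member, placed by the within-list percentile of its top peak, averaged over the 2 MEF lists (x axis) and the 2 ESC lists (y axis); blue points are the 19 members with a KLF4 peak in all 10 KLF4 lists, and rings mark named members. Members spread over most of the plane, with Ctif and the strongest Sgk1 member high on both axes, Zbtb44 and Ets2 high in ESC alone, and Azin2 high in MEF alone.

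The member with the highest mean percentile lay inside Ctif, which codes for a factor of cap-dependent translation in the pioneer round, at chr18:75461196-75467093. Its top peaks had percentiles of 96.9 and 95.1 in MEF and 94.8 and 94.97 in ESC, and fold enrichments of 32.2 and 26.3 in MEF and 17.04 and 16.7 in ESC. The nearest day 3, 6 or 9 peak was 5423 bp away. Ctif also held the most members of any gene, 6, together with Rbpms, which codes for an RNA-binding protein and held 6 as well. Bcar3 and Dym held 5 each and Glis3, a zinc finger factor, held 4. These genes span from 110 kb (Bcar3) to 421 kb (Glis3), with Ctif at 266 kb and Rbpms at 147 kb. The counts were not scaled to gene length. Ctif and Dym lie on the same chromosome, at chr18:75431205-75697696 and chr18:75018699-75286966.

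Near Ehd1, an ATPase of endocytic recycling, a member at chr19:6268412-6274158 had percentiles of 85.9 and 91.6 in MEF and 94.99 and 95.5 in ESC. A member 5648 bp from Pecam1, an adhesion molecule of endothelium that ESC also carry, lay at chr11:106720930-106726156 with fold enrichments of 14.1 and 6.95 in MEF and 35.7 and 31.8 in ESC. Both ESC values were above both MEF values there. Both of these members, and the one nearest to Shq1, 71271 bp away (a chaperone of small nucleolar ribonucleoproteins) at chr6:100497873-100500539, had KLF4 peaks in all 4 ESC and 2i lists and in no day 3, 6 or 9 list. Sgk1, a kinase induced by serum and glucocorticoids, held 3 members, none with a peak in a KLF4 list. In the strongest of them the order was the other way: fold enrichments were 19.8 and 18.7 in MEF and 8.54 and 9.41 in ESC (chr10:21935897-21938609). The nearest peak of a day 3, 6 or 9 list lay 26329 bp from it. The other Sgk1 members were chosen for description after their values were seen. One inside the gene had percentiles of 88.9 and 86.6 in MEF and 83.2 and 78.9 in ESC (chr10:21920820-21924837). The one at an Sgk1 gene start ranked higher in ESC, with 57.7 and 65.2 in MEF and 94.9 and 95.8 in ESC (chr10:21986098-21988525). A member 4044 bp from Keap1, the inhibitor of the oxidative stress factor NRF2, had fold enrichments of 9.55 and 10.0 in MEF and 19.1 and 17.9 in ESC (chr9:21223467-21225685). The rest of the 10 strongest lay at or near Dusp27 and Gpa33, Dnaic2, Lgi1 and Serpina3n, with percentiles of 79.2 to 98.3 over these 4 members and the 4 lists.

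In the widest members one end held nearly all of the width. The widest member spanned 14847 bp over Hoxd12 and Hoxd13, homeobox genes that pattern the distal limb, at chr2:74662719-74677565. MEF replicate 1 covered 14565 bp of it and ESC replicate 1 only 618 bp, with fold enrichments of 25.6 and 32.4 in MEF and 4.87 and 4.22 in ESC. The other 4 of the 5 widest were ESC domains with a small MEF peak inside. At Rbpj, the DNA-binding effector of Notch signalling, ESC replicate 1 covered 12049 of 12230 bp with a fold enrichment of 42.5, and MEF replicate 1 covered 1537 bp with 6.14 (chr5:53550417-53562646). In the member 10847 bp from Zbtb44, a zinc finger gene, the MEF peaks reached percentiles of only 10.4 and 41.6 while both ESC peaks reached 99.8 (chr9:31006983-31018872). In the member 65961 bp from Fam13c and in that at Llgl2, a gene of epithelial polarity, ESC percentiles were 96.1 to 97.2 and MEF percentiles 37.1 to 63.7. Across all members the ESC peaks covered more bases than the MEF peaks in 45.6%, so wide ESC domains were not the general form.

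**Figure D3:**
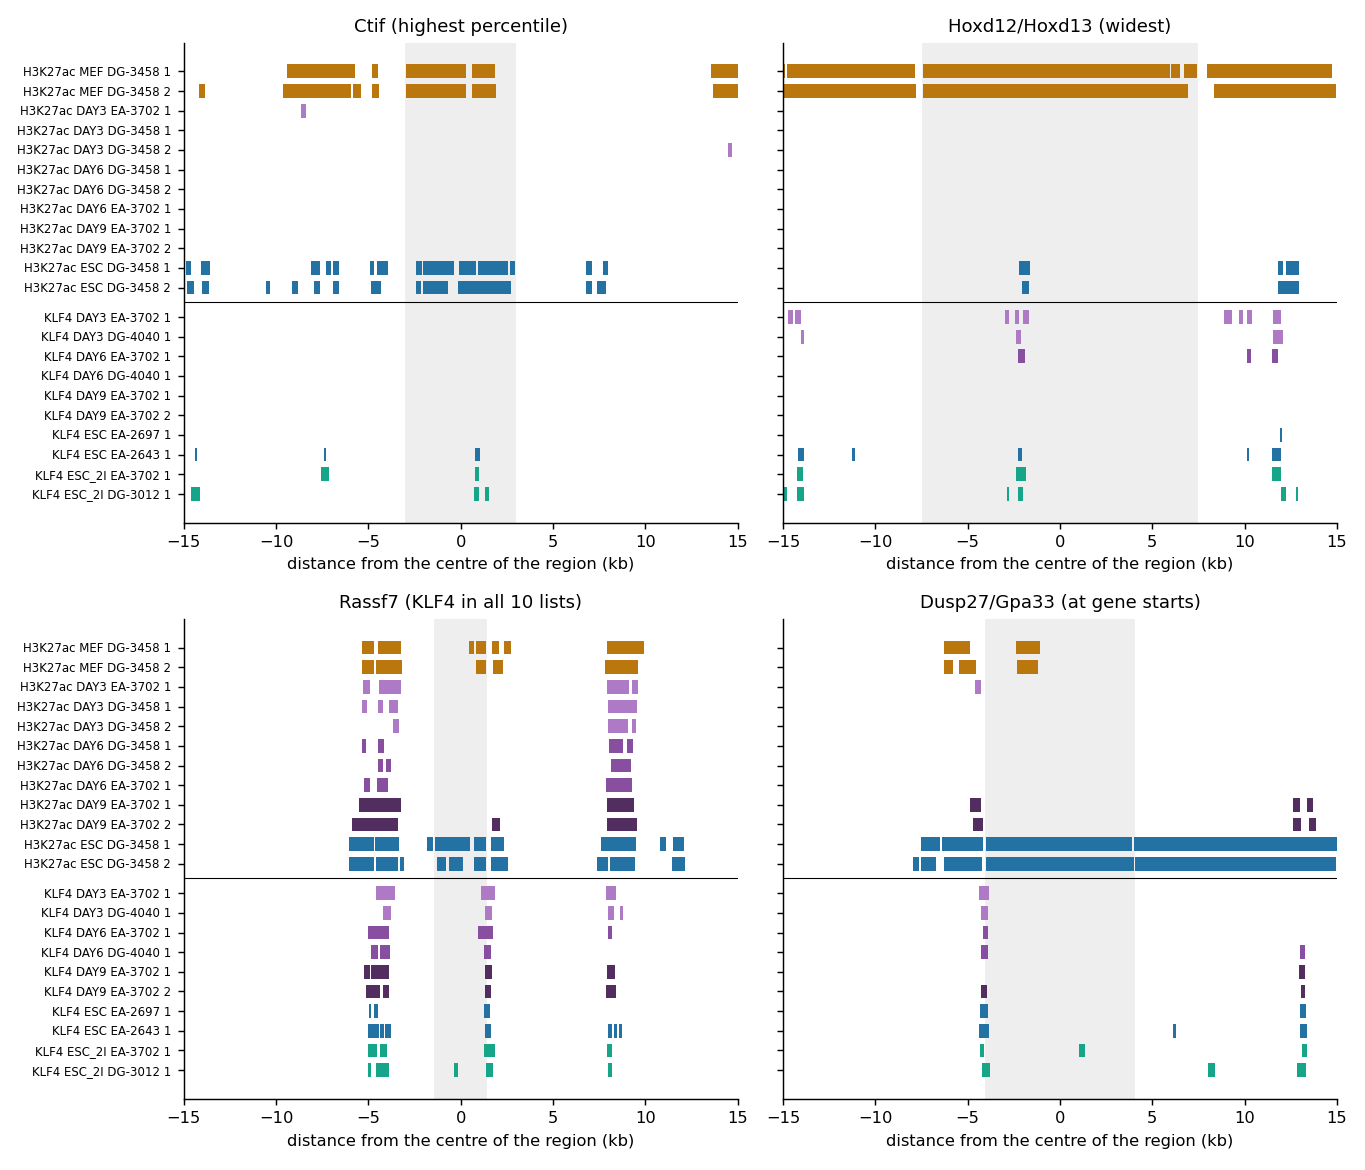
Peaks of every library about 4 members, by distance from the centre of the region in kb; each bar is a peak, the grey band is the member, H3K27ac libraries stand above the line and KLF4 libraries below it. The 4 are the first of each named set: Ctif (highest mean percentile), Hoxd12/Hoxd13 (widest, 14847 bp), Rassf7 (KLF4 in all 10 lists) and Dusp27/Gpa33 (at gene starts); no H3K27ac peak of day 3, 6 or 9 enters a grey band, and at Rassf7 and Dusp27/Gpa33 such peaks stand 321 and 148 bp from its edge.

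The median distance from a member to the nearest H3K27ac peak of day 3, 6 or 9 was 4527 bp, against 10685 bp for regions in MEF lists alone and 7723 bp for regions in ESC lists alone. Within 1 kb 216 members (17.2%) had such a peak, beside 9.68% and 13.99% of those 2 classes, and within 10 kb 70.4% had one, beside 48.3% and 55.7%. Of all merged regions, many of which hold a day peak themselves, 48.3% had one within 1 kb and 73.2% within 10 kb. At Dusp27 and Gpa33, the gene of an intestinal cell surface antigen, the member was 8019 bp of a longer ESC domain, with ESC percentiles of 98.0 and 98.3, MEF percentiles of 79.9 and 85.8, and day 3 and day 9 peaks beyond its edge. At Rassf7, which codes for a RAS association domain protein, the nearest day peak was 321 bp away. The count of members was 1037 when no day peak was allowed within 1000 bp and 1073 when peaks up to 1000 bp apart were merged.

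Most members lay away from gene starts, as did most merged regions. Beside the 8.78% at a gene start, 43.3% of members lay inside a protein-coding gene without a start and 48.0% outside genes, against 50.1% and 43.1% of all merged regions. Of regions in all 12 lists 73.8% held a gene start, against 1.66% of regions in MEF lists alone and 2.05% in ESC lists alone. The median distance from the centre of a member to the nearest start was 14719 bp, against 23569.5 bp for all merged regions. End-point regions at a gene start were members in 110 of 8495 cases (1.29%), and those at none in 1143 of 7381 (15.5%). Distal end-point regions also had weaker peaks, with a median mean percentile of 70.1 against 88.6 at gene starts. On X lay 18 members (1.44%), beside 2.23% of all merged regions.

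The 10 strongest members at gene starts differed in which end was stronger. The member at the start of Cldn20, a claudin of tight junctions, which overlaps Tfb1m as well, had fold enrichments of 13.3 and 11.1 in MEF and 12.5 and 9.12 in ESC (chr17:3530702-3533201). The folds at Cldn20 overlap, while both ESC percentiles (90.9 and 84.3) were above both MEF percentiles (83.6 and 80.5). At Mybph, a myosin-binding protein of muscle, the fold enrichments were 7.81 and 8.49 in MEF and 14.1 and 7.59 in ESC, which overlap, while both ESC percentiles (93.9 and 88.5) were above both MEF percentiles (75.2 and 76.9) (chr1:134189351-134193625). Catip, which codes for a protein of cilia, had fold enrichments of 14.8 and 12.4 in MEF and 7.03 and 7.47 in ESC (chr1:74362071-74363246). Spp1, osteopontin, a secreted matrix protein, had 5.88 and 6.83 in MEF and 30.4 and 29.2 in ESC (chr5:104432486-104438666). Both ESC values stood above both MEF values at Spp1, in fold enrichment and in percentile, and the reverse held at Catip. The others of the 10 strongest at gene starts were at Dusp27 and Gpa33, Serpinb9b and the predicted or unnamed genes E130018N17Rik, Gm42054, Gm34891 and Gm32587.

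In or within 2.5 kb of 696 of 21631 protein-coding genes (3.22%) lay at least 1 member. A longer gene has more room for a member, and the gene lists were not matched for length. None of 24 fibroblast identity genes and none of 26 cell cycle genes had one. The fibroblast genes are a check of the labels: all 15 of them with a window in the promoter table had a peak there in both MEF lists and 4 in both ESC lists, while of 16 pluripotency genes 14 had one in both ESC lists and 4 in both MEF lists. The ESC grew on feeder cells of a kind the labels do not name, and the part of feeder chromatin in the ESC lists was not tested.

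Of 24 pluripotency genes 2 had a member. At Pou5f1, the core pluripotency factor and a gene of the cassette, it was an 801 bp region beyond the 3′ end at chr17:35512226-35513026, with MEF percentiles of 57.0 and 35.1 and ESC percentiles of 6.81 and 14.7. The Pou5f1 member thus ranked lower in ESC than in MEF, among the weakest ESC peaks. At Klf5, a KLF factor of naive pluripotency, an internal member at chr14:99309521-99310991 had percentiles of 57.7 and 65.2 in MEF and 43.8 and 65.7 in ESC. Of 20 epithelial junction genes 1 had a member, Cdh1, the E-cadherin gene, with a region inside the gene at chr8:106625556-106627105. Its percentiles were 65.1 and 61.9 in MEF and 52.4 and 60.7 in ESC, and KLF4 peaks lay in 1 day 6, 1 day 9 and both 2i lists.

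Of 29 genes of the TGF-beta and BMP pathway 3 had a member: the receptors Acvr1 and Acvr1b and the inhibitor Smad6. The share of all protein-coding genes was 3.22%, with gene length not matched. The Acvr1b member ranked at 38.7 and 50.6 in MEF and 71.1 and 70.6 in ESC (chr15:101181223-101182615), while that of Acvr1 ranked at 62.8 and 57.8 in MEF and 11.7 and 3.68 in ESC (chr2:58485687-58486770). Of 22 WNT genes Axin1, a scaffold of the beta-catenin destruction complex, and Tcf7, a nuclear effector, had one. In the FGF and ERK list Etv4, an ETS factor induced by FGF signalling, had a member. The Etv4 member lay 71 bp from a day peak. Of 22 adhesion and actin genes Lims1 and Pxn, both of focal adhesions, had 1 and 2 members. Of 23 AP-1 and TEAD genes Amotl2, which binds YAP, had one, with fold enrichments of 14.6 and 9.45 in MEF and 4.63 and 4.20 in ESC (chr9:102734787-102738746).

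Of 40 chromatin regulators 4 had a member, which is 10.0% beside 3.22% of all protein-coding genes. This is a description of a short list, with gene length not matched. Tet1, which oxidises 5-methylcytosine, had an internal member with fold enrichments of 11.6 and 17.2 in MEF and 5.52 and 5.12 in ESC (chr10:62850404-62852245). At Dnmt3a, the de novo DNA methyltransferase, the values were 11.2 and 11.9 in MEF and 3.26 and 3.79 in ESC (chr12:3886310-3887827). At Kdm1a, a demethylase of histone H3 lysine 4, the order was reversed, with 5.12 and 5.75 in MEF and 18.99 and 17.8 in ESC over 4455 bp (chr4:136591640-136596094). Arid1b, a BAF complex subunit, had a weak one with percentiles of 28.0 to 51.5. None of the 4 held a KLF4 peak in any list. Of 24 glycolysis, ribosomal and cytoskeletal genes used in every cell 1 had a member, Eno1.

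KLF4 peaks lay in members mainly in the ESC and 2i lists. At least 1 KLF4 list had a peak anywhere in 532 of the 1253 (42.5%), beside 26.0% of all merged regions, and none had in 721. KLF4 in ESC or 2i lists and in no day list was found in 305 (24.3%), beside 5.88% of all merged regions and 22.2% of regions in ESC lists alone. KLF4 in day lists alone was found in 37 (2.95%), beside 8.72%, and KLF4 in both kinds of list in 190 (15.2%), beside 11.4%. These shares are over whole regions, and members were wider, with a median of 1421 bp against 542 bp for all merged regions. In the central 500 bp at least 1 list had a peak in 25.8% of members and 20.4% of all merged regions. This window lessens the effect of width but does not remove it. The lower quartile of width was 915 bp in members, 473 bp for ESC lists alone and 320 bp for all merged regions. In this window a KLF4 peak lay in 7.58% and 3.75% of members in the day 3 libraries, 5.59% and 3.75% on day 6, and 3.59% and 4.15% on day 9. The shares were 7.02% and 12.5% in ESC and 12.1% and 14.4% in 2i. Both 2i values were above all 6 day values, and the ESC values overlapped those of day 3. The stage means were 5.67% ± 2.71 on day 3, 4.67% ± 1.30 on day 6, 3.87% ± 0.395 on day 9, 9.78% ± 3.89 in ESC and 13.2% ± 1.64 in 2i (each with the SD over 2 libraries).

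The difference between the 5 stages did not pass the threshold of 0.05. The between-stage F was 5.76 with p = 0.0656 in a two-sided exact permutation test over 945 labelings, and 0.0820 after Benjamini-Hochberg adjustment over 5 KLF4 tests. It passed when each KLF4 list was held to its 21129 strongest peaks (F = 20.8, adjusted exact permutation p = 0.0146), to its upper 50% (F = 8.44, adjusted p = 0.0304), or when the overlap had to reach 50% of the shorter interval (F = 11.2, adjusted p = 0.0238). Within batch EA-3702 the shares were 7.58% on day 3, 5.59% on day 6, 3.59% and 4.15% on day 9 and 12.1% in 2i. Within batch DG-4040 they were 3.75% on both day 3 and day 6, and the 2 ESC libraries and the other 2i library were each alone in a batch. The slope over days 3, 6 and 9 was -0.299 percentage points per day, with p = 0.311 in an exact permutation test over 90 labelings (adjusted 0.311), and it was -0.0209 without the day 3 library of batch EA-3702 and -0.568 without that of DG-4040. Exchanging labels only inside a batch, the slope was -0.52 (p = 0.0833, exact permutation test over 24 labelings) and the F had p = 0.133 (exact, 120 labelings).

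Members held KLF4 more often than regions restricted to either end. Against regions in MEF lists alone the share was higher by 6.72 ± 4.05 percentage points (mean and SD over 10 libraries) and against regions in ESC lists alone by 3.94 ± 1.34, in 10 of 10 libraries each time. Against regions in all 12 lists the difference was -34.1 ± 9.36 points, with members lower in 10 of 10 libraries. Each of the 3 comparisons gave p = 0.00195 in a two-sided exact sign-flip permutation test over the 10 libraries. This is the smallest p that 1024 sign flips can give, and it was 0.00326 after adjustment over the 5 tests. The test treats the 10 libraries alike, although they span 5 stages and some share a batch. By rule, regions in MEF lists alone lack the ESC H3K27ac peaks of members, and regions in all 12 lists hold day peaks that members lack. How far the KLF4 differences follow from these rules was not tested. The 590 regions with an H3K27ac peak in exactly 1 day list had higher shares than members in all 10 libraries, from 5.76% to 13.6% in the day libraries and from 11.2% to 21.0% in ESC and 2i, with no test. Differences from regions in ESC lists alone ran from 2.36 points in a day 9 library to 5.98 in the day 3 library of batch EA-3702. Those from regions in MEF lists alone ran from 2.92 to 5.78 points in the day libraries and from 6.68 to 13.7 in the ESC and 2i libraries. Gene starts were more frequent in members (8.78%) than in regions of one end alone. Without all regions at gene starts the differences were 6.00 points from MEF alone, 3.23 from ESC alone and -31.5 from all 12 lists, each with the same adjusted p of 0.00326 in the exact permutation test.

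**Figure D4:**
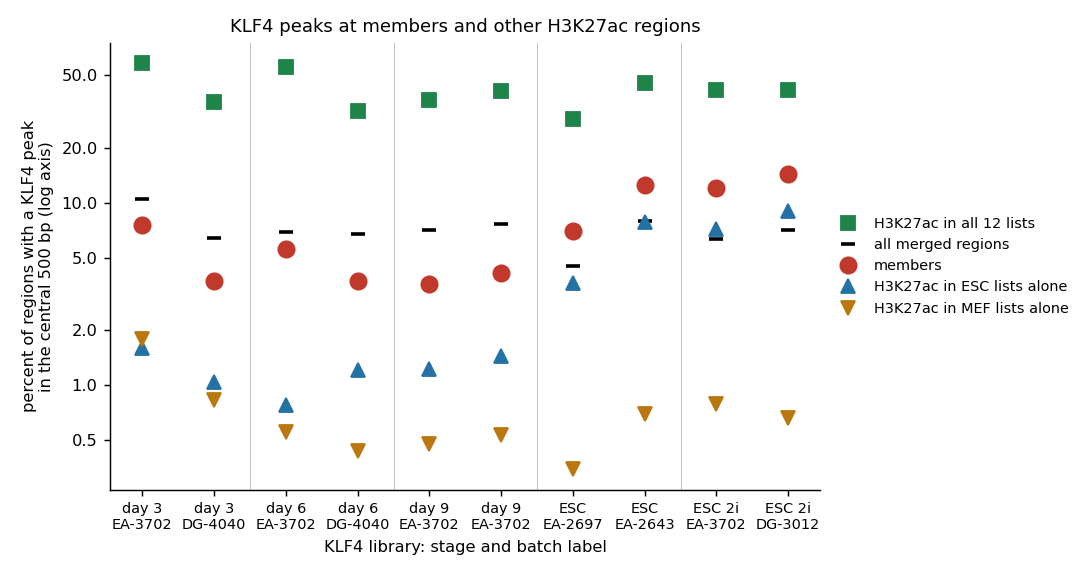
Percent of regions with a KLF4 peak in their central 500 bp (y axis, log scale) in each of the 10 KLF4 libraries (x axis, stage and batch label), for members, for regions with H3K27ac in all 12 lists, in MEF lists alone or in ESC lists alone, and for all merged regions; each symbol is 1 library. Members lie above both one-end classes in all 10 libraries, below all merged regions in the 6 day libraries (3.59% to 7.58%) and above them in the 4 ESC and 2i libraries (7.02% to 14.4%).

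The same held for calls required in both libraries of a stage, with members below the background on the days and above it in ESC. A central KLF4 peak in both day 3 lists was found in 34 members (2.71%) beside 5.22% of all merged regions, in both day 6 lists in 33 (2.63%) beside 4.48%, and in both day 9 lists in 33 (2.63%) beside 5.87%. In both ESC lists it was found in 68 members (5.43%) beside 3.81%, and in both 2i lists in 92 (7.34%) beside 3.96%. Over whole regions, KLF4 in all 4 ESC and 2i lists and in no day list marked 31 members (2.47%), beside 0.47% of all merged regions, 2.27% of regions in ESC lists alone and 2.37% of the regions with 1 day list. KLF4 in ESC or 2i lists was more frequent where the ESC peaks ranked higher. A KLF4 peak in an ESC or 2i list lay in 63.1% of the 203 members whose ESC percentile was higher by more than 30 points. The share was 36.7% of the 792 within 30 points and 29.5% of the 258 whose MEF percentile was higher by as much. KLF4 in a day list was found in 20.2%, 17.8% and 17.4%, in the same order. These shares are over whole regions, whose median widths were 1880, 1244 and 1737.5 bp.

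KLF4 in every list was rarer in members than in all merged regions, but more frequent than in regions of either end alone. Over whole regions, all 6 day lists had a peak in 0.142% of regions in MEF lists alone and 0.258% in ESC lists alone. All 10 lists had one in 0.0569% and 0.112% of these regions, whose median widths were 718 and 676 bp against 1421 bp in members. Peaks lay in all 6 day lists in 26 members (2.08%), beside 4.72% of all merged regions, and in all 10 lists in 19 (1.52%), beside 2.44% of all merged regions and 2.88% of the regions with 1 day list. A 2771 bp member whose nearest coding gene was Ets2, an ETS factor, at 46472 bp (chr16:95767522-95770292), had MEF percentiles of 7.33 and 14.8 and ESC percentiles of 97.6 in both lists. At Azin2, an antizyme inhibitor of polyamine metabolism, the order was reversed, with fold enrichments of 13.1 and 14.1 in MEF and 2.36 and 3.66 in ESC (chr4:128957130-128959180). Near Dag1, which codes for dystroglycan, a matrix receptor, both MEF values stood above both ESC values but closer to them, with fold enrichments of 8.14 and 9.70 in MEF and 5.70 and 6.05 in ESC (chr9:108200554-108201728), and the nearest day peak lay 2637 bp away. At Smad6 a 652 bp member outside the gene had percentiles of 30.5 and 37.8 in MEF and 40.9 and 43.9 in ESC, and a day peak 136 bp away (chr9:64023197-64023848). The Rassf7 member (chr7:141219005-141221776) also holds the hairpin of Mir210, a hypoxia-induced microRNA, and its fold enrichments were 4.49 and 5.43 in MEF and 9.10 and 10.1 in ESC. Members near Calcoco1 and Usp22 had day peaks 192 and 57 bp away. Those at Msi1, near Nipal3 and Zc3h10, and 117511 bp from Zbtb10 had none nearer than 5043 bp.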

How the data were processed

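ChIP-seq had been made from crosslinked, sonicated chromatin, per the labels' protocols. The submitters' processing notes name cutadapt 1.8.1, Bowtie2 2.2.5, MACS2 2.1.1, deepTools 2.3.6 and the build mm10. The authors deposited 1 peak list per library, and for each peak a score, a fold enrichment, a −log10 p-value and a −log10 q-value. The 13 input libraries were not used here. Within a list, peaks were ranked by the deposited −log10 p-value. Depth is unknown, so precision comes from the spread between libraries.

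The members and gene lists were chosen with earlier results of these data known. Named members were the 10 with the best mean percentile over the 4 MEF and ESC lists, the 5 widest, the 10 best with KLF4 in all 10 lists, the 10 best at gene starts, the 5 genes with most members, and list genes with a member within 2.5 kb. Promoter windows were written for the first 6 members at gene starts and for those with KLF4 in all 10 lists, without chromosome 18, and 6 windows are shown. Gene positions and promoter windows came from RefSeq GRCm38.p6; the genome itself and a CTCF motif were not used here. KLF4 shares were compared over libraries by exact permutation tests (Python 3.11.15, numpy 2.4.6), adjusted over 5 tests with a threshold of 0.05. The code was tested on simulated lists. In the 2 DG-3458 day 6 lists the peak names carry each other's replicate number; neither list held a peak in any member. A gene of the FGF and ERK list is not reported here.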

Additional observations from a re-analysis of the deposited data

Results flagged for a closer look

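KLF4 peaks in the central 500 bp were rarer in members than in all merged regions in every day 3, 6 and 9 library and more frequent in every ESC and 2i library. The mean difference was -2.80 percentage points over the 6 day libraries (range -3.51 to -1.30) and 5.04 points over the 4 ESC and 2i libraries (range 2.52 to 7.30). Every library of one kind moved one way and every library of the other kind the opposite way, and this difference was not tested. All merged regions include regions with an H3K27ac peak in a day list, which the rule kept out of the members. Within batch EA-3702, which holds both kinds, the difference was -2.91, -1.30, -3.50 and -3.51 points in the 4 day libraries and 5.74 in the 2i library. Regions in ESC lists alone were also below all merged regions in every day library and above them in both 2i libraries. In the ESC libraries they were below (3.65% beside 4.50%, 7.85% beside 7.94%). Members were above regions of either end alone in all 10 libraries. In the day libraries they were higher by 2.36 to 5.98 points than ESC alone and by 2.92 to 5.78 than MEF alone.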

How the results depend on the processing

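The number of members was 696 with the top 50% of each list and 98 with 17493 peaks in each list, which also raise the strength a peak needs, and 2721 with batch DG-3458 alone, which has fewer day libraries, none of day 9, and whose members contain all 1253. Of 19 alternatives 16 kept it within 1.5 times, and leaving out each library gave 1253 to 1663. The between-stage F for KLF4 passed the threshold with the top 50% of each KLF4 list (8.44, adjusted exact permutation p = 0.0304), with 21129 peaks in each (20.8, adjusted p = 0.0146) and with an overlap of 50% of the shorter interval (11.2, adjusted p = 0.0238), and not in the other 16 of 19, where a q-value limit of 0.01 gave 1.43 and leaving out each library 3.04 to 11.8; where that leaves a stage with 1 library, the spread is taken from the other stages. The 3 differences from other classes kept their sign and an adjusted exact permutation p of at most 0.00651 under all 18 alternatives: 3.503 to 12.99 points from MEF alone, 2.06 to 7.20 from ESC alone, and -53.9 to -22.8 from all 12 lists. The slope over days stayed negative and did not pass under any of 15. With stage labels exchanged only inside a batch, which pairs the day 3 and day 6 KLF4 libraries of EA-3702 and of DG-4040, the slope was -0.52 and the F 5.76, with exact permutation p = 0.0833 and 0.133 (0.133 adjusted for both). One alternative, regions at no gene start, was chosen after seeing the data. No paired analysis was possible by replicate number, because the KLF4 groups share fewer than 2 numbers and the H3K27ac groups, which share the numbers 1 and 2, enter no test.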

Other observations

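The 3 microRNA hairpins that lay in members were Mir210, Mir28b and Mir1247, the last at the imprinted Dio3 locus. Members made up from 4.84% of end-point regions on chromosome X to 9.75% on chromosome 6, with 4.93% on chromosome 12 and 5.10% on chromosome 7. These shares have no test.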
